A study of Mus musculus with 120 samples.

Results

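The transcription factor gene Myc and 9 genes of the G1 phase of the cell cycle were followed in single mouse group 2 innate lymphoid cells (ILC2s): the D-type cyclins Ccnd1, Ccnd2 and Ccnd3, the kinases Cdk4 and Cdk6, and the kinase inhibitors Cdkn1a, Cdkn1b, Cdkn2c and Cdkn2d. They were taken by symbol, and these 10 are among 46078 gene identifiers in the count files, of which 13264 had at least 1 read in the 120 cells. Reads were found for 9 of the 10. The question was how these genes stood in cells that secreted a cytokine after stimulation, in cells that stayed silent and in cells recovered before the stimulus.

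ILC2s are tissue lymphocytes without antigen receptors that release IL-5 and IL-13 when they receive alarm signals such as IL-33. All cells came from the pooled mesentery of 20 wildtype C57BL/6 mice, were sorted as lineage-negative c-Kit+Sca-1+ cells, and had been kept in culture with IL-2 for a long period before the experiment, so that they are cultured and already IL-2-exposed cells rather than cells fresh from fat. As a rule the study took its ILC2s from female mice retired from breeding, and no age was given in the sources used here. For each index cytokine (IL-13 or IL-5, whose secretion was imaged), 5 pre-stimulation cells were recovered before IL-2 and IL-33 were added. After stimulation with IL-2 and IL-33, 11 cells each were recovered 30, 60 and 90 min after that cell's own onset of secretion, and 11 activated (secretion-positive) and 11 silent (secretion-negative) cells were taken at a common late time. This gives 12 groups of index and state.

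In G1, a cell decides whether to replicate its DNA. D-type cyclins bind CDK4 or CDK6, and the active kinases phosphorylate the retinoblastoma protein, which frees E2F factors to switch on the genes of DNA replication. The INK4 proteins encoded by Cdkn2c (p18) and Cdkn2d (p19) bind CDK4 and CDK6 directly, whereas the Cip/Kip proteins encoded by Cdkn1a (p21) and Cdkn1b (p27) bind cyclin-kinase complexes. MYC is an early gene of lymphocyte activation that drives ribosome production and metabolism.

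Gene reads per cell ranged from 65 to 785198 with a median of 254001, and 6 cells were below 84667, a third-of-median limit. No label names an animal or a separate culture behind a cell, so each group counts as 1 sample: no test between groups was possible and no p-value is given. A level in CPM is the number of reads of a gene in all cells of its group per 1000000 reads on genes. Brackets after them give exact Poisson 95% intervals. The reads carry no molecular identifiers, so these intervals and those on ratios cover read-counting error only. Shares of cells are given as numbers of cells. The spread over cells is given beside them. The sample titles carry 2 dates per index, and the indexes share no date, so a difference between indexes cannot be told apart from one between dates. First and second date below are those of each index. The pre-stimulation cells carry only the first, while 5 cells of each stimulated group carry the first and 6 the second. Comparisons between stimulated groups can thus be given on both dates, and those with pre-stimulation cells on the first alone. Of 15 ILC2 markers, Gata3 had reads in 116 cells, Rora in 114 and Il1rl1 in 113, but Thy1 in 53, Il7r in 46, Bcl11b in 29, Areg in 14 and Il17rb in 13. Their sum was 12646 (IL-13) and 11918 (IL-5) CPM before stimulation, 6427 and 8552.98 CPM in activated and 7160 and 7927 CPM in silent cells. The T cell list (8 genes) summed to 1386 CPM in the IL-13-index and 1465 CPM in the IL-5-index pre-stimulation cells and to 604 CPM in the IL-13-index silent cells, against 95.5 to 323 CPM in the other 9 groups. Cd3g and Lat carried it, Cd4, Cd8a, Cd8b1 and Cd5 were at 0 in all cells, and B cell and NK/ILC1 markers were at 0 throughout. Markers of ILC3s, mast cells, myeloid and stromal cells summed to at most 344, 326, 38.3 and 175 CPM in any group. Its part in the results below was not tested. At a common depth of 100000 reads, the median number of genes per cell was 2919 in activated and 2359 in silent IL-13-index cells, and 3011 and 2612 in IL-5-index cells. Before stimulation it was 1910 and 2239. Thinned to that depth, in the cells deep enough, the expected share of cells with a read stayed apart between activated and silent cells for Myc (81.6% and 48.9% for IL-13, 97.0% and 40.0% for IL-5), against 81.8% and 54.5%, and 100% and 45.5%, as read. The part of gene number in these shares was not tested.

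Activated cells more often held reads of Myc, Cdk4, Cdk6 and Cdkn1a than silent cells. Over both indexes, Myc was read in 20 of 22 activated and 11 of 22 silent cells, Cdk4 in 20 and 15, Cdk6 in 11 and 4, and Cdkn1a in 19 and 11. Ccnd2 was read in nearly every cell of either state, 22 and 21 of 22, and Ccnd3 in 4 activated and 8 silent cells. Reads of Cdkn1b, Cdkn2c and Cdkn2d were found in a larger share of pre-stimulation than of stimulated cells: 5, 5 and 4 of 10 against 1, 10 and 1 of 110. For every member with reads, the ranges of the cells' values overlapped between every pair of the 12 groups, except that all IL-5-index cells at 90 min had reads of Cdk6 and no IL-13-index silent cell had any.

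**Figure D1:**
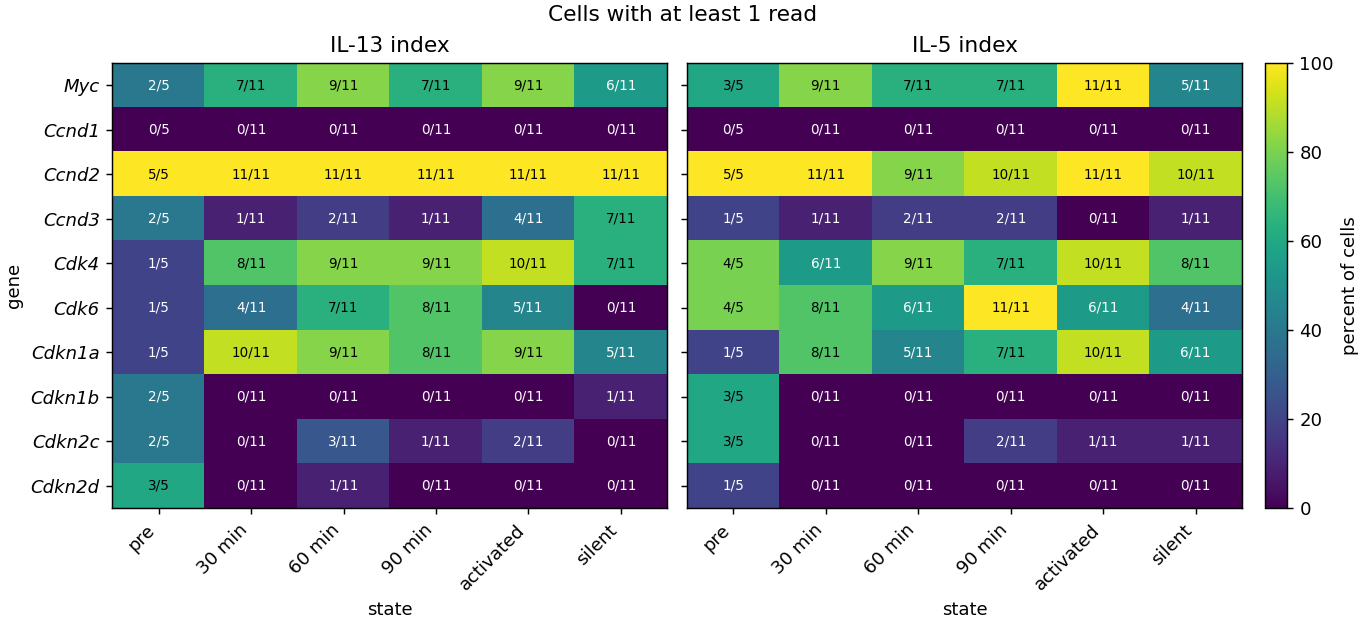
Number and percentage (colour) of cells with at least 1 read of each member, by state, for the IL-13 index (left) and the IL-5 index (right). Ccnd2 fills nearly every field, Ccnd1 none, and the percentages of Cdkn1b, Cdkn2c and Cdkn2d are highest in the pre-stimulation column, although Cdkn2c also has reads in 10 stimulated cells.

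Myc (ENSMUSG00000022346) lies on chromosome 15, bases 61985391 to 61990374 of mm10 (GRCm38), plus strand, and had 7907 reads in 82 of the 120 cells. The 5 IL-13-index pre-stimulation cells stood at 0, 88.9, 30.4, 0 and 0 CPM. The 5 IL-5-index ones stood at 22.5, 258, 0, 0 and 210 CPM. Both sets thus mixed cells without a read and cells with clear signal. In the IL-13 index, the summed level was 20.7 CPM (12.7 to 32.0) before stimulation, 352 at 30 min, 436 at 60 min, 133 at 90 min, 189 (174 to 204) in activated cells and 181 (165 to 198) in silent cells. IL-5-index sums ran 105 (87.3 to 125), 351, 266, 235, 326 (308 to 345) and 124 (112 to 137). The highest groups were therefore those soon after onset, together with the activated cells of the IL-5 index.

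The Myc reads of the silent groups came from few cells. Activated IL-13-index cells ranged from 0 through a median of 108 to 473 CPM, and silent ones from 0 through 3.82 to 821 CPM. Silent replicate 7 alone held 54.8% of the reads of its group. The log2 ratio of activated over silent cells was 0.06 (-0.11 to 0.24), with 1.02 when that cell was left out, and it was 1.79 on the first date but -0.54 on the second. Activated IL-5-index cells ranged from 9.21 through 113 to 928 CPM, all 11 with reads, and silent ones from 0 through 0 to 581 CPM, 5 of 11 with reads. Here the activated sum was 2.63-fold the silent one (log2 ratio 1.40, 1.23 to 1.57). Leaving out any 1 cell gave 1.04 to 2.27, the highest without silent replicate 9, which held 51.3% of its group's reads. The ratio was 2.56 on the first date and 0.23 on the second. Detection of Myc was less bound to single cells. With the different first dates of the indexes pooled, 10 of 10 activated and 4 of 10 silent cells had reads. With the second dates pooled, it was 10 of 12 and 7 of 12.

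Against pre-stimulation cells, activated cells held 9.09-fold more Myc in the IL-13 index (log2 ratio 3.18, 2.54 to 3.91, and 2.76 to 4.91 over single cells left out) and 3.12-fold more in the IL-5 index (1.64, 1.37 to 1.91, and 1.24 to 2.62). Silent cells stood 8.71-fold above pre-stimulation cells in the IL-13 index (log2 ratio 3.12, and 2.16 to 4.84 over single cells left out) and 1.18-fold in the IL-5 index (0.24, -0.05 to 0.54). Leaving out silent replicate 9 or pre-stimulation replicate 2 took the latter to -0.63 or 1.23, so its direction turned on 1 cell. At 30 min the ratio to pre-stimulation cells was 4.08 in the IL-13 and 1.74 in the IL-5 index, or 17.0-fold and 3.35-fold. Silent cells and cells just past onset share these few pre-stimulation cells as their base.

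**Figure D2:**
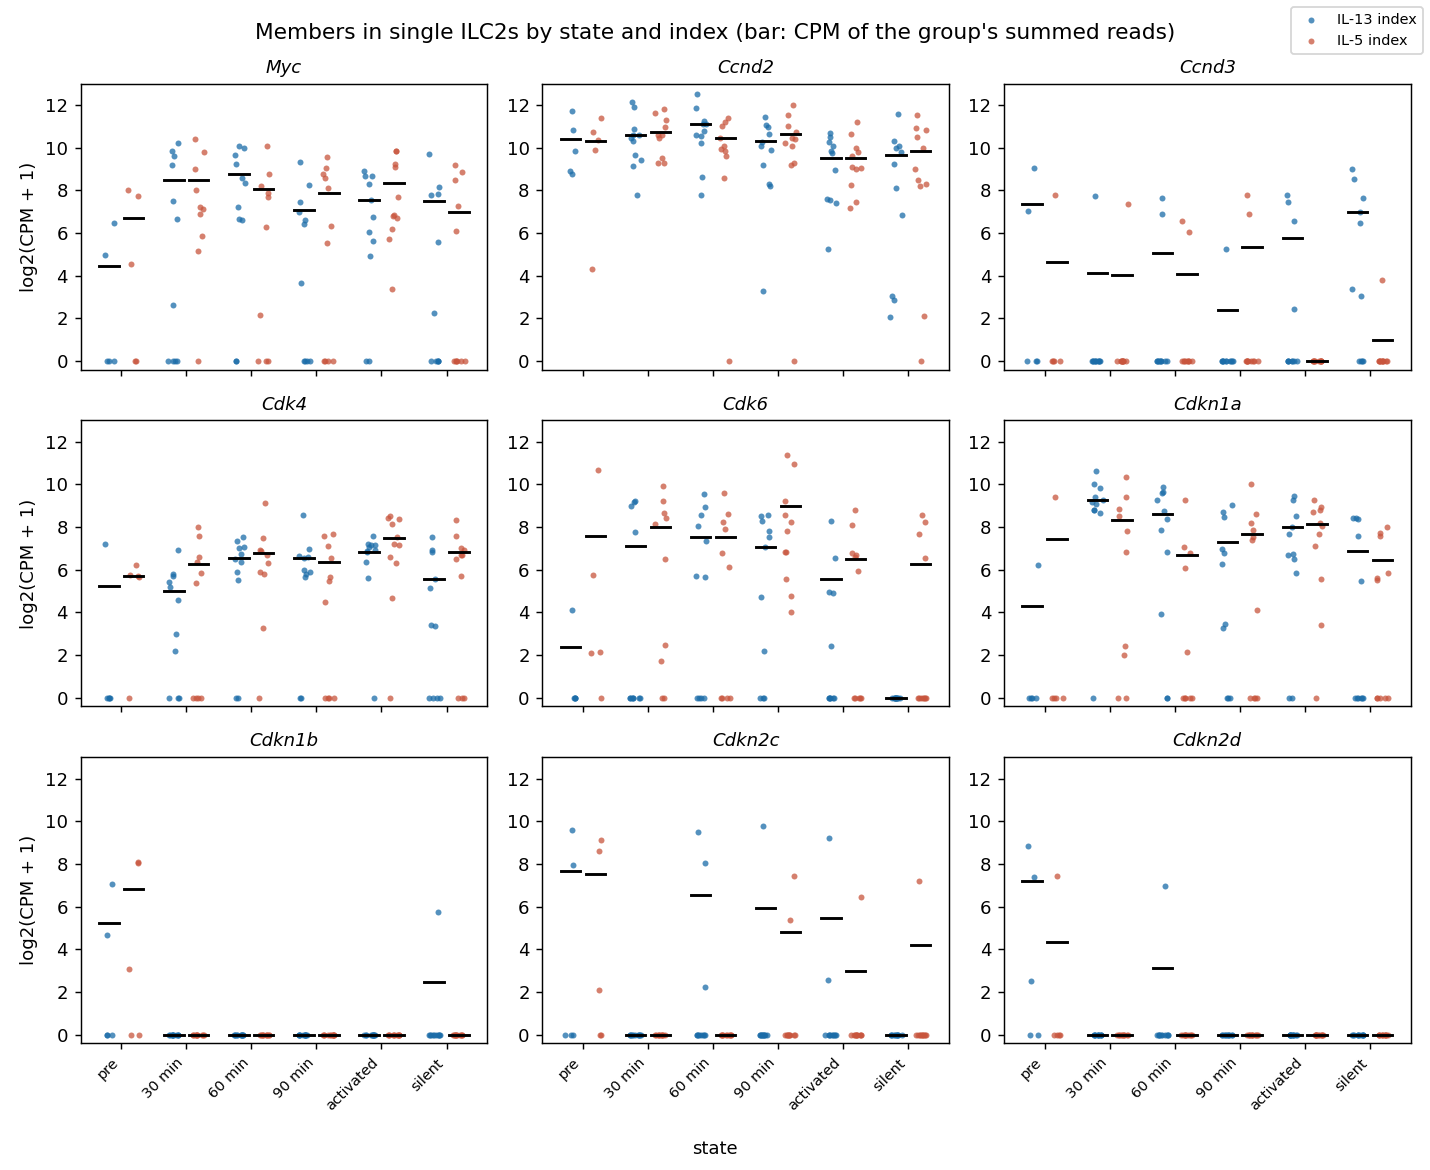
log2(CPM + 1) of 9 members in each cell, by state (horizontal axis) and index (colour), with black bars at the CPM of the summed reads. Ccnd1, at 0 in all cells, and the 2 cells under 1000 reads are not drawn. Ccnd2 sits high in nearly all cells, Myc, Cdk4, Cdk6 and Cdkn1a split into cells with and without reads, and Cdkn1b and Cdkn2d are at 0 in almost all stimulated cells.

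Among the D-type cyclins, Ccnd2 (chromosome 6, bases 127125162 to 127152193, minus strand) had the most reads, 39760 in 116 cells, while Ccnd1 had none. For Ccnd1 (chromosome 7, bases 144929931 to 144939925, minus strand), 0 of 120 cells allows a share of up to 2.5% of cells with a read. A level of 3 reads would be 0.0967 CPM over all reads. Its 3' end shares 1100 exonic bases with LTO1 on the opposite strand, whose 757 reads lay in 19 cells. The strand setting of the read counting is not given in the sources used here, so reads of such partners cannot be told apart, and the limit holds for reads counted as Ccnd1 rather than for its transcript.

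Ccnd2 was present before stimulation and was lowest in the cells taken at the late common time. The IL-13-index pre-stimulation cells stood at 431, 486, 3351, 930.3 and 1810.45 CPM, and the IL-5-index ones at 2677, 1725, 1326, 955 and 18.7 CPM. The sums from pre-stimulation through 30, 60 and 90 min to activated and silent were 1336, 1528, 2239, 1282, 721 (692 to 751) and 800 (766 to 835) CPM in the IL-13 index. The IL-5-index sums were 1255, 1708, 1422, 1611, 737 (710 to 765) and 922 (889 to 957) CPM. Activated and silent cells were near each other in both indexes, with log2 ratios of -0.15 (-0.24 to -0.06) and -0.32 (-0.40 to -0.25) and single-cell left-out ranges of -0.34 to 0.50 and -0.54 to -0.12. Their medians over cells were 857 and 598 CPM in the IL-13 index and 553 and 509 CPM in the IL-5 index. Cells at 30 min held 2.12-fold (IL-13) and 2.32-fold (IL-5) the Ccnd2 of activated cells, with left-out ranges of the log2 ratio of 0.80 to 1.26 and 1.01 to 1.43, and those at 60 min held 3.10-fold and 1.93-fold. Against pre-stimulation cells, activated cells were lower by 0.89 and 0.77 on the log2 scale, short of 2-fold.

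Ccnd3 (chromosome 17, bases 47505051 to 47599691, plus strand) was sparse, with 1018 reads in 24 cells. Its 3' end shares 361 exonic bases with Bysl on the opposite strand, whose 2202 reads lay in 54 cells. The IL-13-index pre-stimulation sum of 162 CPM came from replicate 1 (520 CPM) and replicate 5 (130 CPM). IL-13-index silent cells held 124 CPM (111 to 138) with 7 of 11 cells read, and activated cells 53.5 CPM (45.8 to 62.2) with 4 of 11. This 2.31-fold lower level in activated cells (log2 ratio -1.21, -1.49 to -0.94) ran from -2.29 to -0.68 over single cells left out, and it was 0.30 on the first date and -1.64 on the second. In the IL-5 index, activated cells had 0 reads and silent cells 3, so no ratio is given. The transition groups held 4.2 to 39.9 CPM, from 1 or 2 cells each.

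The kinases Cdk4 and Cdk6 partner the D-type cyclins. Their upstream sequences are shown because both carry the letters CACGTG, the E-box that MYC with its partner MAX is known to bind. The 250 bases before the RefSeq start (build GRCm38.p6) are given 5' to 3' with each CACGTG in capitals, for Cdk4 at chr10:127063285-127063534 and for Cdk6 at chr5:3343643-3343892, both on the plus strand.
Cdk4: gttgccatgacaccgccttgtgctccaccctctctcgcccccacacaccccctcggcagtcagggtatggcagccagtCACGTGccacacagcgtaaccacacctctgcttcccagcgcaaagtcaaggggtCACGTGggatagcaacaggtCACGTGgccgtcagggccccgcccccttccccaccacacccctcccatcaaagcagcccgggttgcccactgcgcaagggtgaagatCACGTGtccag
Cdk6: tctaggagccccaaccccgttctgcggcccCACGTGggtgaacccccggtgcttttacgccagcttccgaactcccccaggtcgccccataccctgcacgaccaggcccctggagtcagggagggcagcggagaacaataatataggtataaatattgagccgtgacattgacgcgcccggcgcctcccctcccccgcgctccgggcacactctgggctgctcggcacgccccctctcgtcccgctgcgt
The 4 copies in Cdk4 begin 172, 118, 98 and 11 bases before the start and the 1 copy in Cdk6 begins 220 bases before it. CACGTG reads the same on both strands and was present in 6.02% of 32851 promoter windows of this length, and 7 windows (0.0213%) held 4 or more copies. RefSeq windows were found for 7 of the 10 members (10 windows in all), not for Myc, Ccnd1 and Ccnd2, and no other member's window held CACGTG. Searched on both strands, the AP-1 letters TGANTCA (in 6.75% of all windows) and the E2F letters TTTCCCGC (0.895%) and TTTGGCGC (0.417%) were in no member's window, and the forkhead letters TGTTTAC (3.17%) were in 1, of Ccnd3. These matches are descriptions of letters only.

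Cdk4 (chromosome 10, bases 127063534 to 127067920, plus strand) was highest in activated cells of both indexes. Its 2912 reads lay in 88 cells. At its 3' end it shares 641 exonic bases with Tspan31 on the opposite strand, which had 4538 reads in 64 cells. Of the IL-13-index pre-stimulation cells only replicate 1 held it, at 146 CPM. The IL-5-index ones stood at 0, 52.2, 49.1, 75.0 and 51.4 CPM. The sums in the usual order were 37.3, 31.4, 93.1, 93.7, 114 (103 to 127) and 46.8 (39.0 to 55.9) CPM in the IL-13 index. The IL-5 index gave 51.1, 75.5, 110, 81.5, 177 (163 to 191) and 114 (102 to 126) CPM. In both indexes, cells at 30 min were lower than activated ones, by 3.64-fold and 2.34-fold (log2 ratios -1.86 and -1.23, with left-out ranges of -2.28 to -1.72 and -1.61 to -1.03).

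The cell values of Cdk4 moved with the sums. Activated IL-13-index cells ranged from 0 through 122 to 192 CPM, 10 of 11 with reads, and silent ones from 0 through 9.50 to 187 CPM, 7 of 11 with reads. The activated sum was 2.44-fold the silent one (log2 ratio 1.29, 0.99 to 1.59), 1.11 to 1.76 with any 1 cell left out, 0.70 on the first date and 1.81 on the second. Activated IL-5-index cells ranged from 0 through 146 to 368 CPM and silent ones from 0 through 103 to 325 CPM. Their ratio was 0.63 (0.44 to 0.82), 0.47 to 0.96 with 1 cell left out, and 0.52 and 0.82 by date. Cdk4 was thus higher in activated cells in both indexes and on both dates of each, though past 2-fold in the IL-13 index alone. Whether the indexes, which share no date, differ was not tested. Against pre-stimulation cells, activated cells held 3.06-fold (log2 ratio 1.61) and 3.45-fold (1.79) as much. The IL-13 value rests on pre-stimulation replicate 1 and was at least 4.77 without that cell, when no read was left before stimulation.

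Cdk6 (chromosome 5, bases 3341485 to 3531008, plus strand; 4563 reads in 64 cells) had higher sums after onset than in activated cells. From pre-stimulation to silent they were 4.15, 139, 183, 134, 45.7 (38.6 to 53.8) and 0 CPM in the IL-13 index. For IL-5 they were 192, 254, 186, 502, 90.3 (80.9 to 100) and 75.7 (66.3 to 86.1) CPM. The 30, 60 and 90 min sums exceeded those of activated cells by 3.05-, 4.00- and 2.94-fold in the IL-13 index and by 2.81-, 2.06- and 5.56-fold in the IL-5 index. Left-out ranges of these 6 log2 ratios all stayed above 0, the lowest value being 0.47, at 60 min in the IL-5 index. By date, the IL-13 value at 30 min was 4.98 on the first and -5.25 or lower on the second, since all 4 cells with reads carried the first date.

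None of the 11 IL-13-index silent cells had a read of Cdk6. By read counting this allows a summed level of up to 1.39 CPM, and 3 reads would be 1.13 CPM. Yet 0 of 11 cells allows up to 28.5% of cells with a read. With 5 of 11 activated cells read, the summed activated level was 40.3-fold that of the silent cells set to 3 reads, a bound for these summed reads only. Activated replicate 6 (311 CPM) accounted for 63.0% of the activated reads, and leaving it out gave a log2 ratio of at least 4.04. The IL-5-index ratio was 0.25 (0.01 to 0.50) and ran from -0.41 to 0.67, with 6 of 11 activated and 4 of 11 silent cells read. The IL-5-index pre-stimulation sum came to 93.1% from replicate 1, at 1627 CPM, while the other 4 cells held 3.26, 52.9, 3.41 and 0 CPM. Activated over pre-stimulation cells was therefore -1.09 with that cell and 2.61 without it. In the IL-13 index it was 11.0-fold (log2 ratio 3.46, 2.08 to 5.36), on 4 pre-stimulation reads, all of replicate 1, and at least 3.45 on the log2 scale without it, but -1.25 against the pre-stimulation cells of both indexes together.

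**Figure D3:**
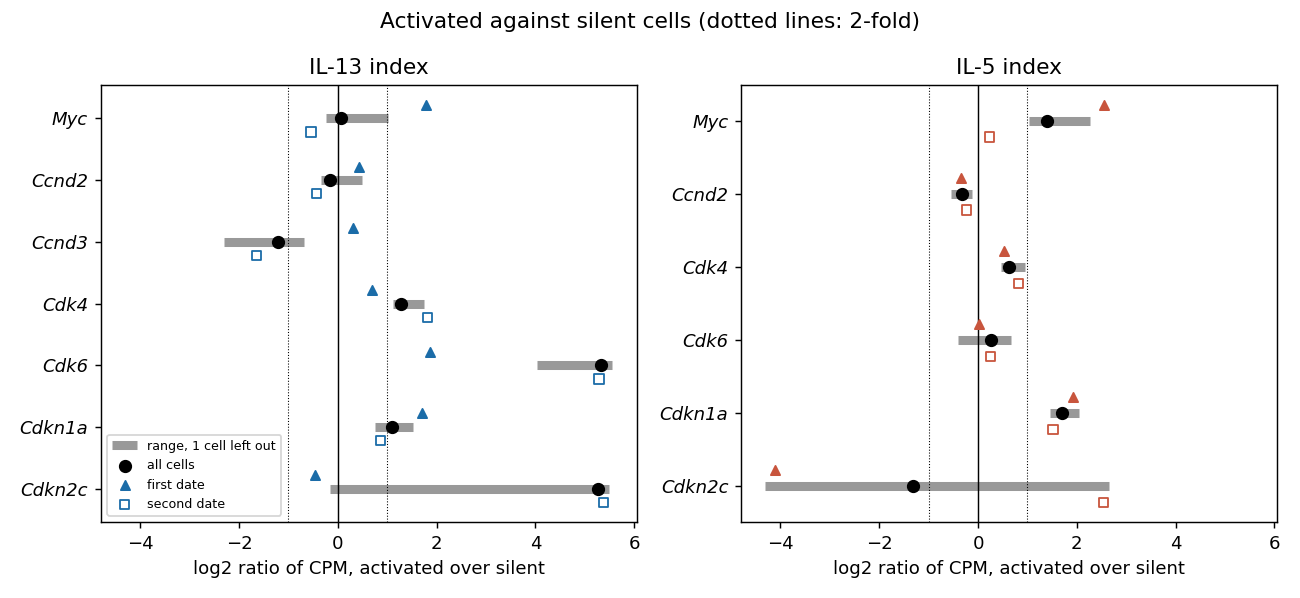
log2 ratio of CPM in activated over silent cells for each member reaching 10 CPM in either group, in the IL-13 index (left) and the IL-5 index (right). Dots are all cells, grey bars the range over single cells left out, triangles and squares the cells of the first and second date, and groups under 3 reads are set to 3 reads. Cdk4 and Cdkn1a lie to the right of 0 on every value, and the bar of Cdkn2c crosses 0 in both panels.

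Of the Cip/Kip inhibitors, Cdkn1a and Cdkn1b had nearly opposite distributions. Cdkn1a (chromosome 17, bases 29090976 to 29100727, plus strand), a target of p53 and of growth signals, had 7682 reads in 79 cells. Before stimulation it was read in 1 cell of each index, replicate 1 of the IL-13 index at 73.1 CPM and replicate 2 of the IL-5 index at 688 CPM. After stimulation 77 of 110 cells held it. The sums in the IL-13 index were 18.7, 624.98, 392, 157, 253 (236 to 271) and 119 (106 to 133) CPM. The IL-5-index sums were 174, 326, 104, 202, 281 (264 to 298) and 86.8 (76.7 to 97.8) CPM. At 30 min, 10 of 11 IL-13-index cells held it, with a median of 573 and a highest value of 1569 CPM.

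Activated cells held more Cdkn1a than silent ones in both indexes. In the IL-13 index, activated cells ranged from 0 through 105 to 704 CPM and silent ones from 0 through 0 to 348 CPM, with 9 and 5 of 11 cells read. The ratio was 2.13-fold (log2 1.09, 0.90 to 1.29), 0.75 to 1.52 with 1 cell left out, 1.70 on the first and 0.87 on the second date. Activated IL-5-index cells ranged from 0 through 264 to 623 CPM and silent ones from 0 through 44.5 to 258 CPM, with 10 and 6 of 11 read. The ratio was 3.23-fold (log2 1.69, with an interval of 1.5 to 1.89), 1.46 to 2.04 with 1 cell left out, 1.92 and 1.52 by date. Cdkn1a was the member that was higher in activated than in silent cells by more than 2-fold in both indexes. Against pre-stimulation cells, cells at 30 min held 33.5-fold more in the IL-13 index, on 18 pre-stimulation reads that were all of replicate 1 (without it, a log2 ratio of at least 7.23), and 1.87-fold more in the IL-5 index, where leaving out replicate 2, the only pre-stimulation cell with reads, gave a log2 ratio of at least 6.62 in place of 0.91.

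Cdkn1b was read in 5 of 10 pre-stimulation cells and 1 of 110 stimulated cells. Its upstream bases and those of Cdkn2d are shown as the starts of the members found almost only before stimulation. Both hold CCAAT, the letters bound by NF-Y, here in capitals in either direction (CCAAT or ATTGG), which were in 33.8% of all windows and in 3 of the 10 of the members. The window of Cdkn1b is chr6:134920151-134920400 (plus strand) and that of Cdkn2d chr9:21291210-21291459 (minus strand), in the same build.
Cdkn1b: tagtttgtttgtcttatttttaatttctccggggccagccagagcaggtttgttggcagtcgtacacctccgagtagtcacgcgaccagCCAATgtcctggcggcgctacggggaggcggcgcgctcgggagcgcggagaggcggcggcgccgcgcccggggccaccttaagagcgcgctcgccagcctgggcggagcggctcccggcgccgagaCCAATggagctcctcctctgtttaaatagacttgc
Cdkn2d: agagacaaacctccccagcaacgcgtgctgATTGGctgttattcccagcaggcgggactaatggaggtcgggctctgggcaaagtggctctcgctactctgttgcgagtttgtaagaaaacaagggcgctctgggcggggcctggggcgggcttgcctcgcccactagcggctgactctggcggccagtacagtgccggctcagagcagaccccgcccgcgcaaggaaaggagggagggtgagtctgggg
The third window with CCAAT was a second start of Ccnd3.

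Cdkn1b (chromosome 6, bases 134920401 to 134925513, plus strand) is known as an inhibitor of quiescent lymphocytes that is degraded as cells enter the cycle. The IL-13-index pre-stimulation cells held 24.4, 0, 0, 0 and 134 CPM and the IL-5-index ones 7.5, 0, 0, 269 and 266 CPM. The sums were 36.3 CPM (25.3 to 50.5) and 113 CPM (94.9 to 134). After stimulation, 9 of the 10 groups had 0 reads, and silent replicate 4 of the IL-13 index held all 12 reads of the remaining group (53.3 CPM). Activated cells were at least 38.6-fold lower than pre-stimulation cells for IL-13, and for IL-5 the bound was 141-fold. In numbers of cells, these folds rest on 2 and 3 pre-stimulation cells, and the log2 ratio was -3.09 or lower without IL-13-index replicate 5.

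The INK4 genes were likewise read in a larger share of pre-stimulation cells. Cdkn2c (chromosome 4, bases 109660876 to 109667189, minus strand) had 1067 reads in 15 cells, 5 of 10 before and 10 of 110 after stimulation. The pre-stimulation cells held 248, 782, 0, 0 and 0 CPM in the IL-13 index and 0, 3.26, 389, 0 and 556 CPM in the IL-5 index. Stimulated cells with reads were few but could be as high: 1 IL-13-index cell at 90 min held 888 CPM and activated replicate 10 held 600 CPM. The sums were 200, 0, 92.4, 60.6, 43.5 and 0 CPM in the IL-13 index and 184, 0, 0, 26.8, 6.97 and 17.3 CPM in the IL-5 index. Activated over silent was at least 38.4-fold in the IL-13 index but rests on activated replicate 10, since the other activated cells held 1 read and silent cells none. For IL-5 it was -1.31 on 1 cell in each state, and at least 2.65 without silent replicate 5, when silent cells held no read. Neither value describes more than 1 or 2 cells.

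Cdkn2d (chromosome 9, bases 21288410 to 21291407, minus strand) had 188 reads in 5 cells. The IL-13-index pre-stimulation cells held 455, 0, 0, 166 and 4.63 CPM, and of the IL-5-index ones replicate 1 held 172 CPM. After stimulation 1 cell, at 60 min in the IL-13 index, held it at 122 CPM. The pre-stimulation sums were 146 and 19.0 CPM, and activated cells, at 0 reads, were at least 156-fold and at least 23.6-fold lower. Without replicate 1 of the IL-13 index its pre-stimulation sum was 40.4 CPM and the log2 ratio -5.43 or lower. Without replicate 1 of the IL-5 index no read was left in either group.

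Taken cell by cell, 9 of the 10 pre-stimulation cells (90.0%) held a read of Cdkn1b, Cdkn2c or Cdkn2d, against 12 of 110 stimulated cells (10.9%). The 3 genes were grouped after their values were seen, so this separation follows from the choice and is a description. With at least 5 reads of any 1 of them required, it was 8 of 10 and 10 of 110. Stimulated cells of the first date of each index, the only date of its pre-stimulation cells, gave 6 of 50 with the indexes pooled. Of these 9 cells, 5 held 1 inhibitor: IL-13-index replicate 1 alone held all of Cdkn1b, Cdkn2c and Cdkn2d, and 3 cells (IL-13-index replicate 5 and IL-5-index replicates 1 and 5) held a pair. Activated and silent cells gave 3 of 22 and 2 of 22.

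Other combinations, also chosen after the values were seen, were further apart between activated and silent cells. Myc and Cdk4 were read together in 19 of 22 activated cells (86.4%), 8 of 22 silent cells (36.4%) and 2 of 10 pre-stimulation cells. Myc and Cdkn1a were read together in 18 of 22 activated cells (81.8%), 6 of 22 silent cells (27.3%) and 1 of 10 pre-stimulation cells. With the different first dates of the indexes pooled, Myc with Cdk4 was in 10 of 10 activated and 3 of 10 silent cells. With the second dates pooled, it was in 9 of 12 and 5 of 12. Cdk4 with Cdk6 was in 10 of 22 activated and 2 of 22 silent cells. Ccnd2 was in all 22 activated and 21 of 22 silent cells, and Cdk4 or Cdk6 in 21 and 17 of 22. These pairs restate the shares of the single genes given above, and a link between genes within a cell was not tested.

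A member was counted as higher or lower where its ratio passed 2-fold and the higher group reached 10 CPM. A member that reached 10 CPM only through its high group passes 2-fold more readily, so these counts are read against those of all genes. In activated against silent IL-13-index cells, 4 of 7 members counted were higher (Cdk4, Cdk6, Cdkn1a and Cdkn2c), where 27.6% of all genes were, and 1 (Ccnd3) was lower, where 37.4% were. In the IL-5 index 2 of 6 were higher (Myc and Cdkn1a) against 24.8%, and 1 (Cdkn2c) lower against 30.9%. Of these, Cdk4 and Cdk6 in the IL-13 index and Myc and Cdkn1a in the IL-5 index kept their side of 2-fold whichever single cell was left out. The median log2 ratio of all genes was -0.27 and -0.13. Fitting the scale to the bulk of genes (TMM) moved it by 0.18 and 0.09, and moved the medians of the comparisons with pre-stimulation cells by 0.05 to 0.47. It changed the direction of no member past 2-fold. The all-gene median itself moved more in subsets of cells: on the first date alone the 6 comparisons of activated, silent and 30 min cells with pre-stimulation cells had medians of -0.36 to 0.08, and without IL-13-index replicate 1 activated cells had 0.81.

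Ratios to pre-stimulation cells past 2-fold were common among all genes. In activated against pre-stimulation cells of the IL-13 index, 4 of 9 members were higher (Myc, Cdk4, Cdk6 and Cdkn1a) against 41.5% of all genes, and 4 lower (Ccnd3, Cdkn1b, Cdkn2c and Cdkn2d) against 33.2%. For IL-5, 2 of 9 were higher (Myc and Cdk4) against 42.5%, and 5 lower (Ccnd3, Cdk6, Cdkn1b, Cdkn2c and Cdkn2d) against 33.5%. Silent against pre-stimulation cells gave 2 of 8 higher (Myc and Cdkn1a) against 45.0% and 3 lower against 27.2% in the IL-13 index, and 1 of 9 higher (Cdk4) against 43.5% and 6 lower against 29.9% in the IL-5 index. Cells at 30 min gave 3 of 9 higher (Myc, Cdk6 and Cdkn1a) against 40.0% and 4 lower against 33.3% in the IL-13 index, and 1 of 9 higher (Myc) against 42.9% and 3 lower against 30.4% in the IL-5 index. Cdkn1b, Cdkn2c and Cdkn2d were among the lower members in all 6 of these comparisons, which share their pre-stimulation cells within an index. With any 1 cell left out, and by the ratio alone without a minimum CPM, 2 (IL-13) and 4 (IL-5) members stayed lower in activated cells. For silent cells these were 2 and 4, and the 1 higher of IL-5-index silent cells became 0. The 4 include Ccnd3 and Cdkn2d, whose IL-5-index pre-stimulation reads all lay in replicate 1. Without that cell their ratios compare groups set to 3 reads and reflect depth alone. With the 10 CPM minimum kept, the IL-5-index counts fell to 2 in activated and 3 in silent cells. Ccnd3 in IL-13-index activated cells turned to 0.46 without pre-stimulation replicate 1. The other lower members were Ccnd3 at 30 min in the IL-13 index and Ccnd3, Cdk6 and Cdkn1a in IL-5-index silent cells.

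The surrounding pathway was read from gene lists, whose counts stand against the same shares of all genes: 27.6% (IL-13) and 24.8% (IL-5) higher, and 37.4% and 30.9% lower, in activated than in silent cells. Of 24 known MYC target genes, mostly of ribosome assembly, chaperones and metabolism, 11 were higher and 1 lower in activated than in silent IL-13-index cells (median log2 ratio 0.98, against -0.27 for all genes), and 8 were higher and none lower in the IL-5 index (0.79, against -0.13). With any 1 cell left out, 9 and 8 stayed higher. The summed level was 3386, 6725, 7778, 9816, 15942 and 8474 CPM in the IL-13 index and 4034, 8637, 11646, 10453, 16255 and 9611 CPM in the IL-5 index, so that silent cells stood near the transition cells and activated cells above both. Over single cells the sum ranged from 7267 to 22902 CPM in activated and from 2246 to 14429 CPM in silent IL-13-index cells. Against pre-stimulation cells, 23 and 21 of the 24 were higher in activated cells, with medians of 2.83 and 2.39 against 0.27 and 0.26 for all genes. Ran, Nme1 (a nucleoside diphosphate kinase) and Hspe1 (a mitochondrial chaperone) were the highest: Hspe1 held 2129 CPM in activated and 706 CPM in silent IL-13-index cells, and 1831 and 1188 CPM in IL-5-index cells. The largest ratios were those of Cad, an enzyme of pyrimidine synthesis (82.4 and 5.67 CPM, 49.6 and 8.48 CPM), Pa2g4 (82.7 and 6.80 CPM, 68.3 and 34.9 CPM) and the amino acid transporter Slc7a5 (21.6 and 11.3 CPM, 24.1 and 4.57 CPM).

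Genes of the later phases were mixed in their counts, while their sums were higher for S phase and lower for G2/M in activated than in silent cells of both indexes. Of 28 S phase genes, 15 were counted in the IL-13 index, with 7 higher and 4 lower in activated cells, and 18 in the IL-5 index, with 5 higher and 6 lower. With any 1 cell left out, 6 and 2 stayed higher and 2 and 1 lower. The median number of S phase genes read per cell was 7 in activated and 2 in silent IL-13-index cells and 5 and 3 in IL-5-index cells, where the number of all genes per cell was also higher in activated cells. Their sum was 766 CPM in activated and 559 CPM in silent IL-13-index cells and 822 and 705 CPM in IL-5-index cells. Tyms, which makes thymidylate, held 163 and 29.5 CPM in the IL-13 index and 300.1 and 109 CPM in the IL-5 index, whereas Pcna, the DNA polymerase clamp, held 168 and 34.4 CPM but then 97.3 and 117 CPM, and Slbp 66.7 and 110 CPM, then 76.9 and 157 CPM. Fen1 was at 0 in silent cells of both indexes and at 5.64 and 14.2 CPM in activated cells, and Dnmt1 was lower in activated cells (10.7 and 52.9 CPM, 0 and 35.9 CPM). Of 30 G2/M genes only 4 and 5 reached the minimum, with 0 and 1 higher and 2 and 2 lower. With any 1 cell left out, none stayed higher, and 1 and 0 lower. Their sum was 657 and 975 CPM in the IL-13 and 611 and 1066 CPM in the IL-5 index. Hmgb2, Tubb5 and Cks2 carried most of it. Hmgb2 held 15.3 and 245 CPM in the IL-13 index and 136 and 200 CPM in the IL-5 index, Birc5 was at 0.54 CPM or less in activated cells, and Kif23 was at 8.77 and 10.2 CPM in activated cells and without reads in silent ones.

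IL-13-index pre-stimulation replicate 1 stood apart: it held reads of 29 of the 30 G2/M genes, summing to 26425 CPM, and 7114 CPM of S phase genes in 23 of 28 genes. The G2/M sum of its group was 7095 CPM with and 471 CPM without it, and the S phase sum 2458 and 862 CPM. This cell also held the only Cdk4, Cdk6 and Cdkn1a reads among the IL-13-index pre-stimulation cells and the highest Ccnd3 and Cdkn2d. Without it, the group had 2 of 4 cells with Myc, all 4 with Ccnd2 and 3 of 4 with Cdkn1b, Cdkn2c or Cdkn2d.

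**Figure D4:**
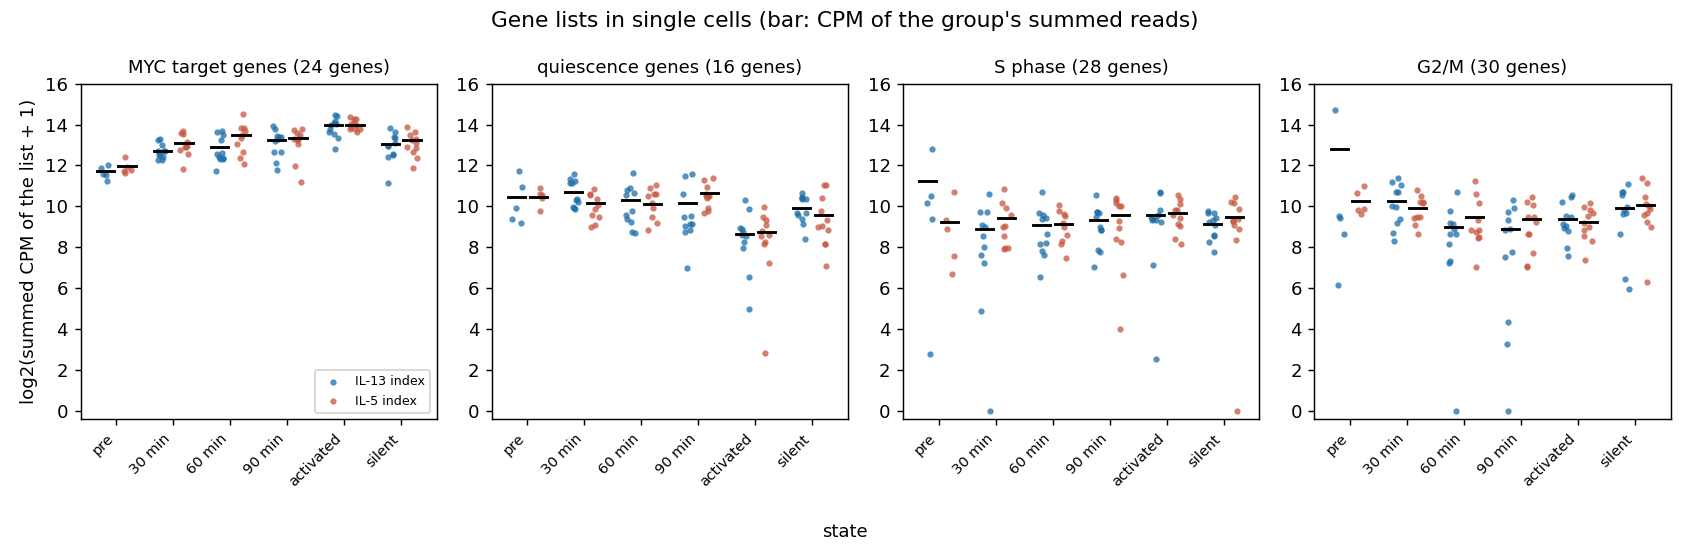
log2(summed CPM + 1) of 4 gene lists in each cell, by state and index, with black bars at the CPM of the summed reads (the 2 cells under 1000 reads are not drawn). MYC target genes are highest in activated cells of both indexes, quiescence genes lowest there, and 1 IL-13-index pre-stimulation cell lies far above the rest in G2/M genes.

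The 16 quiescence genes summed to 406 CPM in activated and 969 CPM in silent IL-13-index cells, to 428 and 776 CPM in IL-5-index cells, and to 1422 and 1414 CPM before stimulation. Of those counted, 2 were higher and 5 lower in activated than in silent cells in the IL-13 index (8 counted) and 1 higher and 2 lower in the IL-5 index (5 counted). Of the lower genes, 1 and 0 stayed lower with any 1 cell left out. Btg1 made up most of the IL-5-index sums. The antiproliferative gene Btg1, read in 117 cells, held 228 and 509 CPM in the IL-13 index and 297 and 600.2 CPM in the IL-5 index. Ypel3 held 1.25 and 287 CPM, then 59.2 and 87.4 CPM, and Bcl6, a transcriptional repressor, 40.4 CPM in IL-13-index silent cells and at most 0.80 CPM in the other silent group and both activated groups. Tob2 went against the list (26.0 and 1.89 CPM, 18.5 and 5.87 CPM), and Rgs2 stood at 27.9 and 13.2 CPM, then 0 and 8.48 CPM.

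The other 24 regulators of the G1/S step gave 3 higher and 5 lower of 12 counted in the IL-13 index and 5 and 5 of 15 in the IL-5 index. With any 1 cell left out, 2 and 4 stayed higher and 4 and 3 lower. Cdkn2b, an INK4 inhibitor that was no member of the group studied, was higher in activated cells, at 36.6 and 11.3 CPM in the IL-13 index and 93.0 and 0 CPM in the IL-5 index, and was at 0 in all pre-stimulation cells. Rbl2, a relative of the retinoblastoma protein, stood at 0.94 and 93.7 CPM, then 8.57 and 33.9 CPM, and E2f5 at 49.5 and 1.13 CPM, then 7.23 and 1.30 CPM. Cdc37, the chaperone partner that loads CDK4, was read in 104 cells at 209 and 227 CPM, then 176 and 227 CPM, Mnat1 stood at 47.9 and 235 CPM, then 99.1 and 180 CPM, and Cks1b at 73.9 and 65.7 CPM, then 103 and 15.3 CPM. In the MYC network of 11 dimerisation partners and relatives, 0 of 5 counted were higher and 2 lower in the IL-13 index, and 1 of 7 higher and 6 lower in the IL-5 index. With any 1 cell left out, 1 and 3 stayed lower. Mga, a MAX partner, held 15.7 and 76.3 CPM, then 27.6 and 61.0 CPM, and Mlxip 0 and 7.18 CPM, then 7.23 and 23.5 CPM. Mlx was higher in activated cells of the IL-5 index (58.7 and 18.9 CPM, with 32.6 and 26.1 CPM in the IL-13 index), and Mxd4 and Mnt, which oppose MYC, were at 0 there against 23.5 and 27.7 CPM in silent cells, with 23.5 and 18.5 CPM for Mxd4 and no reads of Mnt in the IL-13 index.

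Beside Cdkn1a, the 18 other p53 target genes showed no common direction between activated and silent cells, with 4 higher and 4 lower of 11 counted in the IL-13 index and 2 higher and 3 lower of 12 in the IL-5 index. With any 1 cell left out, 2 stayed higher and 1 lower in each index. Ccng1, a cyclin-like p53 target, held 105 and 238 CPM in the IL-13 index and 273 and 141 CPM in the IL-5 index, and Aen 111 and 213 CPM, then 113 and 23.2 CPM. Btg2 held 27.2 and 31.4 CPM, then 47.2 and 114 CPM, and Sesn1 0.63 and 8.69 CPM, then 3.48 and 58.7 CPM. Zmat3 (84.2 and 0.76 CPM) and the death receptor gene Tnfrsf10b (81.4 and 0 CPM) were higher in IL-13-index activated cells, but were at 47.2 and 55.1 CPM and at 48.8 and 39.1 CPM in the IL-5 index. Against pre-stimulation cells 7 and 8 of 11 were higher in activated cells (41.5% and 42.5% of all genes were) and 3 and 1 lower, with 4 and 6 still higher when any 1 cell was left out. Silent cells gave 7 of 11 and 9 of 12 higher, or 5 and 6 with any 1 cell left out, where 45.0% and 43.5% of all genes were.

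The genes whose group levels ran most like each member's were sought among 2658 genes with a mean of at least 50 CPM, by Pearson's r of log2(CPM + 1) over the 12 groups. The 12 points come from 2 dates per index, with no date shared between the indexes. They also differ in depth and in number of cells, so r is a description. Myc ran most like Psme3 (r = 0.92), Traf1 (0.92) and Cnot2 (0.90), and Cdkn1a most like Gramd1a (0.96), Myc (0.89) and Rara (0.88). Cdk4 ran most like the MYC target Hspe1 (0.88), Bccip (0.88) and Uqcrq (0.86), and Cdk6 most like Ssb (0.92), Slc4a7 (0.89) and Eif3a (0.88). Ccnd2 ran most like Gm49339 (0.91), ENSMUSG00000089672 (0.91) and Samsn1 (0.87), and Ccnd3 less closely like any gene, with Mtf2 (0.77), Arl5a (0.75) and Lpar6 (0.74). The genes nearest to Cdkn1b were Fxyd5 (0.89), Rpl27a (0.89) and Rps21 (0.88), to Cdkn2c Scaf11 (0.83), Nxf1 (0.81) and Rps18 (0.80), and to Cdkn2d Ly6e (0.86), Polr2a (0.83) and Fxyd5 (0.82). For these 3 inhibitors, at 0 in 4 to 9 of the 12 groups, r turns on the few groups with reads.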

How the data were processed

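Single ILC2s were captured after live imaging of secretion and sequenced with a 3' SMART-Seq v4 kit, with 5 or 6 libraries evenly pooled. The authors deposited untransformed read counts for every gene and cell, made by aligning read 1 with TopHat (TopHat2 in the submitters' processing notes) to mm10 (GRCm38) and counting with HTSeq. Tool versions, gene annotation and strand setting are not given in the sources used here. Of all counted reads, 62.0% fell on genes, 28.7% were not uniquely aligned, 7.42% lay on no feature and 1.86% were ambiguous. Only reads on genes entered depths and CPM.

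Groups followed the labels for index and state. Counts were summed per group, divided by the group's gene reads and scaled to 1000000. For a group under 3 reads the ratio was taken at 3 reads, and a fold against a group at 0 is given as a bound. Such a bound holds for the summed reads and not for the share of cells that could hold the gene. Over all genes, ratios were set against 2-fold where the higher group reached 10 CPM. Shares of cells were also computed for 113 cells thinned to 100000 reads. The members and gene lists were chosen with earlier results of these data known. Named were the 10 members, from each list at most 3 genes with the highest mean CPM and 3 with the largest ratio of activated to silent cells (mean of both indexes, at least 10 CPM in the higher group of either), and for each member the 3 genes with the highest r. Of the genes chosen by this rule, 1 is not reported here. Gene positions are those of a GENCODE annotation of GRCm38, promoter windows those of RefSeq. The computation of ratios was tested on simulated data. Alternatives were cells' own mean CPM, TMM (edgeR 4.0.16) and DESeq2 1.42.0 size factors, other minima and folds, single dates, both sets of pre-stimulation cells together, no shallow cells, and each cell left out. Software was Python 3.11.15, pandas 2.3.3, numpy 2.4.6, scipy 1.17.1, matplotlib 3.10.9 and R 4.3.3.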

Additional observations from a re-analysis of the deposited data

Results flagged for a closer look

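In the groups of 5 pre-stimulation cells, the highest or lowest cell was set against the others on log2(CPM + 1), in 18 sets of values. A cell stood far from the rest in 8 of them. In the IL-13 index these were the highest cells of Cdk4 (7.20), Cdk6 (4.11) and Cdkn1a (6.21), all 3 the same cell, replicate 1. In the IL-5 index they were the highest cells of Ccnd3 (7.77), Cdkn1a (9.43) and Cdkn2d (7.44), the lowest cell of Cdk4 (0) and the lowest cell of Ccnd2 (4.30). In 6 of the 8, the other 4 cells had no read, so that any cell with reads is set apart by construction, and chance marks some groups in a family of this size. IL-5-index replicate 1 was the cell of Ccnd3, Cdkn2d and, at 0, Cdk4, and replicate 5 that of Ccnd2, at 18.7 CPM.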

How the results depend on the processing

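No paired analysis was possible because the results come from no test and a cell's number only names it. For activated against silent cells and the 3 comparisons with pre-stimulation cells, 69 log2 ratios of members were recomputed 648 times: 412 values stayed within the counting interval, 225 moved beyond it, and 11 of ratios past 2-fold came out with the opposite sign. Ratios short of 2-fold that changed sign are not among the 11. The 11 were Ccnd3 in the IL-13 index for activated against silent cells on the first date (0.30) and against pre-stimulation cells without replicate 1 (0.46, where single cells left out gave -2.68 to 0.46); Cdkn2c for activated against silent cells on the first date (-0.46) or with 1 cell left out (-0.16 to 5.49) in the IL-13 index, where both negative values compare groups under 3 reads and so reflect depth alone, and on the second date (2.55) or with 1 cell left out (-4.31 to 2.65) in the IL-5 index; Cdk6 for activated against pre-stimulation cells in the IL-13 index with both pre-stimulation sets together (-1.25), and in the IL-5 index with 1 cell left out (-1.76 to 2.61, and for silent cells -1.76 to 2.35); and Cdkn1a for silent against pre-stimulation cells of the IL-5 index with 1 cell left out (-1.40 to 4.71). Of these, 2.55, 2.65 and 4.71 are lower bounds, set against groups without reads. The cause was not tested.

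Counts of members past 2-fold moved as follows, with the minimum of 10 CPM kept unless another is named. For activated against silent cells of the IL-13 index, the 4 higher members became 2 at a minimum of 50 CPM or at 4-fold, and the 1 lower became 2 without a minimum, 0 at 4-fold and 0 to 1 with 1 cell left out. In the IL-5 index the 2 higher became 0 at 4-fold, and the 1 lower became 0 with cells' own mean CPM, on the second date, at 50 CPM, at 4-fold and with 1 cell left out. For activated against pre-stimulation cells of the IL-5 index, the 2 higher became 0 at 4-fold and the 5 lower became 3 at 50 CPM and 2 with 1 cell left out. For silent against pre-stimulation cells, the 2 higher of the IL-13 index became 1 with both pre-stimulation sets and 4 without replicate 1, its 3 lower became 5 on the first date, the 1 higher of the IL-5 index became 0 at 4-fold and 0 to 3 with 1 cell left out, and its 6 lower became 3. For cells at 30 min of the IL-5 index, the 1 higher became 2 with own mean CPM, TMM or the first date, 3 with both pre-stimulation sets or 1 cell left out, and 0 at 4-fold. DESeq2 factors and leaving out shallow cells moved no such count. For a gene at 0 in 11 cells, the floor of 3 reads is about 1 to 2 CPM, but up to 28.5% of cells could still hold a read. Having 1 sample per group limits every comparison.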
